A study of Mus musculus with 12 samples.

Results

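The LIM homeodomain genes are a family of transcription factors that assign subtype identity to newly born neurons, and 10 of them were followed here: Lhx1, Lhx2, Lhx3, Lhx4, Lhx5, Lhx8, Lhx9, Isl1, Isl2 and Lmx1b. Every probe set whose only annotated gene was one of these was taken, which gave 18 probe sets for 10 of the 18193 genes named on the array. The members were chosen by name, with earlier results of these data known. Samples came from mouse embryonic stem cells under neuronal differentiation, on 12 Affymetrix arrays in 4 groups of 3: CAG150 cells at day 6, HM1 cells at day 6, CAG150 cells at day 4 and HM1 cells at day 4. HM1 is a male embryonic stem cell line without a working Hprt gene. CAG150 cells carry expanded CAG repeats, per the series title, which in this study are understood to sit in Htt, the gene mutated in Huntington's disease. There is 1 line of each kind, and the labels do not state that replicates came from separate cultures, so p-values measure the spread between these samples, which may be technical. The titles set the groups. The descriptions of the HM1 day 6 samples name the earlier day instead.

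Each protein of this family has a pair of LIM domains, which bind the adaptor Ldb1, and a homeodomain, which binds DNA. Ldb1 joins different family members into one complex, so that the combination present in a young neuron sets its fate, and the LIM-only (Lmo) proteins can compete for the same adaptor. In the embryonic spinal cord, Isl1 with Lhx3 specifies motor neurons, Lhx3 without Isl1 goes with V2 interneurons, Lhx1 and Lhx5 mark several inhibitory interneuron classes, Lhx2 and Lhx9 mark the dorsal dI1 class, and Lmx1b marks the dorsal dI5 class.

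Values are intensities on the authors' linear scale. Differences are of log2(intensity + 16) ± SE from limma, with p-values adjusted over the 12280 genes tested, each gene being represented by its brightest probe set, the one with the highest mean log2 value over the 12 arrays. Folds are taken from the log2 differences, so they are ratios of intensity + 16. For dim genes they are smaller than the ratios of the plain intensities. The threshold was an adjusted p of 0.05. The filter on signal stood at an intensity of 11.9, on the mean of the log2 values over all arrays, and 8 of the 10 genes cleared it. Lhx3 and Lhx8 did not. Lhx1, Lhx4 and Lhx9 cleared it although at least 1 of their groups averaged below that level, so the 8 genes are partly selected for differing. The number of arrays limits the precision. In RNA from whole cultures, fewer cells of a type and less RNA per cell cannot be told apart.

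Array medians ranged from 19.2 to 25.9, and the mean without the outer 2% of probe sets was 150 on every array. The cultures held neuronal and progenitor RNA at both days. The 9 progenitor genes summed to 21900 to 23100 in CAG150 and 20600 to 22500 in HM1 at day 6. Their day 4 sums were 11200 to 11500 in CAG150 and 9060 to 10900 in HM1. Of postmitotic neurons, 13 genes were summed, such as the microtubule-associated proteins Mapt and Map2. These 13 reached 20700 to 21800 in CAG150 day 6 arrays and 14600 to 16500 in HM1 day 6 arrays. At day 4 they reached 3520 to 4000 in CAG150 arrays and 4540 to 4720 in HM1 arrays. At day 6, 11 of the 13 were higher in CAG150 and 0 lower, with a median difference of 0.43 against -0.00195 over all genes tested. Over all genes, 10.1% passed as higher and 11.2% as lower. At day 4, 6 were higher and 2 lower, with a median of 0.28, where 7.87% and 7.92% of all genes passed. The higher HM1 sums at day 4 came from Stmn2, at 607 ± 56.8 in CAG150 and 2110 ± 101 in HM1. Of the 13, Tubb3 lies on chromosome 8 and Mapt and Rbfox3 on chromosome 11, whose tested genes had medians of 0.24 and 0.23 at day 6. The 9 pluripotency genes summed to 956 to 1030 in CAG150 day 6 arrays and 2250 to 2550 in HM1 day 6 arrays. The part of the neuronal, pluripotency or chromosome shifts in the results below was not tested.

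**Figure D1:**
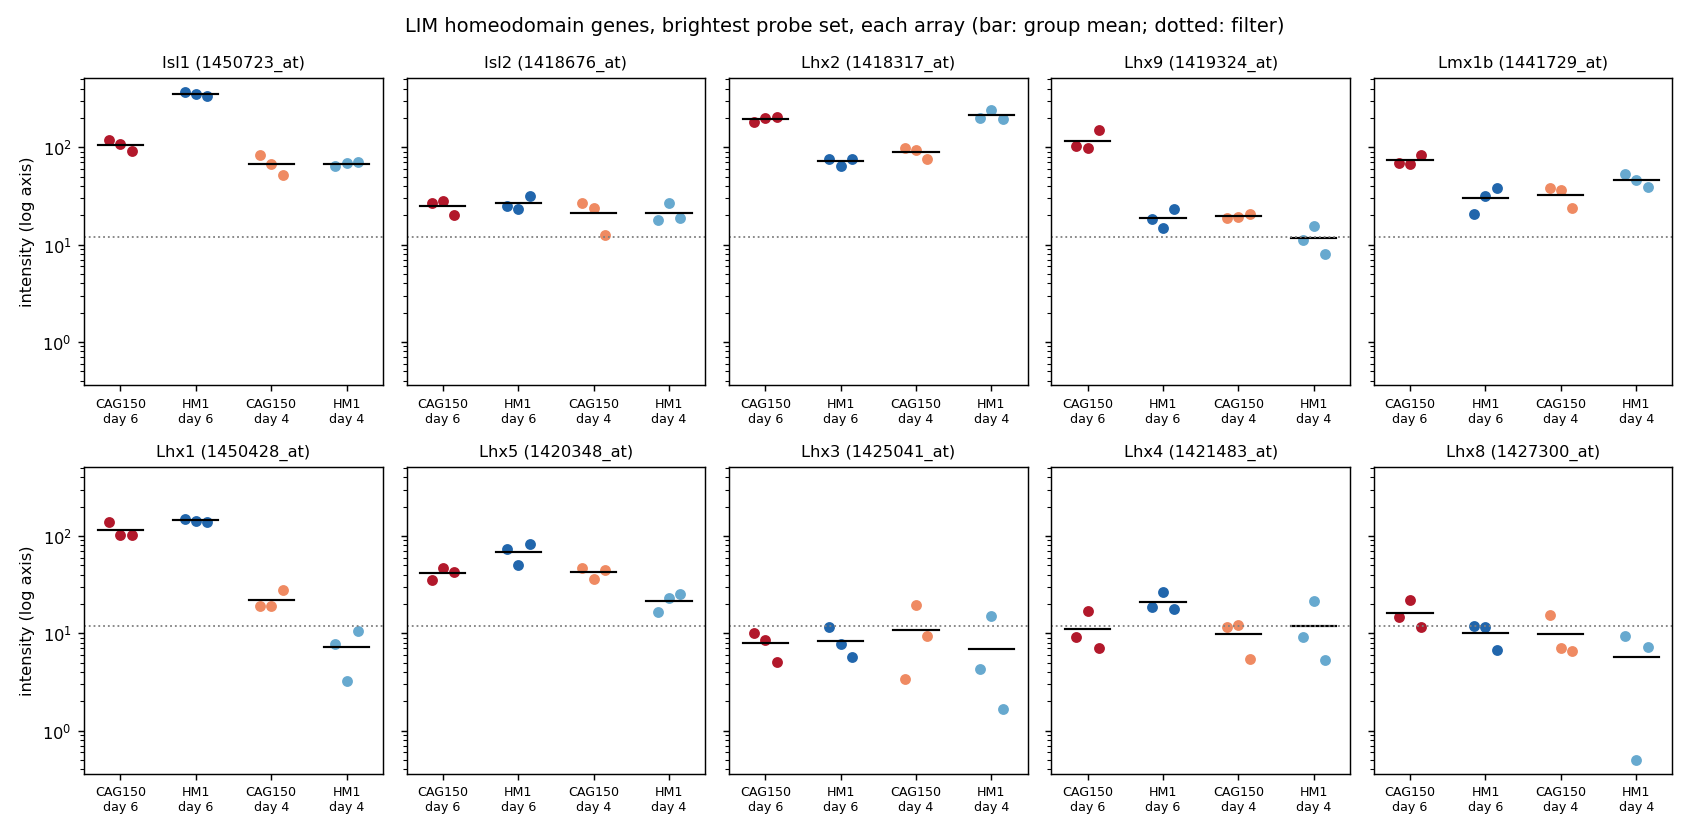
Intensity on each array (log axis) of the brightest probe set of each of the 10 genes, with 3 points and a bar for the mean in each of the 4 groups, and the filter intensity of 11.9 as a dotted line. Isl1 is highest in HM1 at day 6 (335 to 367), Lhx9 and Lmx1b in CAG150 at day 6 (98.0 to 150 and 67.3 to 83.5), while Lhx3 and Lhx8 lie around or below the line in all groups.

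At day 6 the lines differed in the levels of several of these genes. Of the 8 tested, Lhx9, Lhx2 and Lmx1b were higher in CAG150 cells than in HM1 cells and Isl1 and Lhx5 were lower. Over all genes tested, 10.1% passed as higher and 11.2% as lower. By probe set, 6 of the 18 were higher and 3 lower when all 45037 probe sets were tested together, where 3.57% passed as higher and 3.35% as lower. The 6 higher ones were all 4 of Lhx9, that of Lhx2 and 1 of Lmx1b. The 3 lower ones were both of Isl1 and 1 of Lhx4, and that of Lhx5 did not pass there (adjusted p = 0.060). Probe sets of the same gene are not independent of each other.

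**Figure D2:**
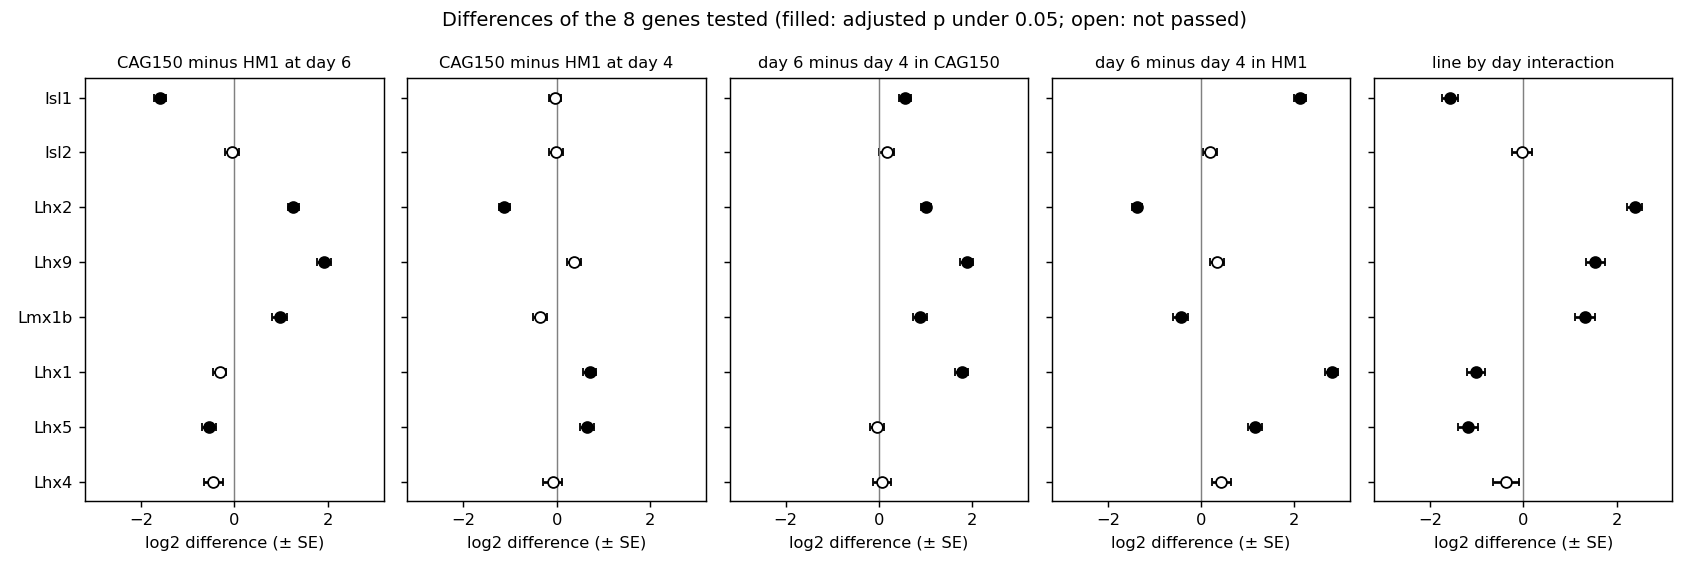
Log2 differences (points) ± SE (bars) of the 8 genes tested, in 5 panels for the comparison of lines at each day, of days in each line, and for the interaction; filled points passed at an adjusted p under 0.05. At day 6 Lhx9 lies farthest to the right (1.92) and Isl1 farthest to the left (-1.60), and in the interaction panel Lhx2, Lhx9 and Lmx1b lie right of 0 while Lhx1, Lhx5 and Isl1 lie left.

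Isl1 is needed for motor neurons and also marks dI3 interneurons, sensory neurons and, outside the nervous system, the second heart field. Its promoter window, 250 bases before to 50 after the transcription start in RefSeq (GRCm38.p6, minus strand, chr13:116309639-116309938), is shown because Isl1 had the largest fall of these genes between the lines. Capitals mark the letters CCAAT or CAGCTG on either strand. CAGCTG is an E-box of the kind that proneural factors bind.
Isl1: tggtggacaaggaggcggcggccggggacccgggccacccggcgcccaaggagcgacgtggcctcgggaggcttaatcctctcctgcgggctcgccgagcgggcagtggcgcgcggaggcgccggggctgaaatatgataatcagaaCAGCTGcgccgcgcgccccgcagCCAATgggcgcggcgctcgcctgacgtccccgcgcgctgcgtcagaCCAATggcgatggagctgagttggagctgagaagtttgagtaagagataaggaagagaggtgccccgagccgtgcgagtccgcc
CAGCTG was found 1 time and CCAAT 2 times in it. Over all 32817 windows of that length, 16.3% held CAGCTG and 37.4% held CCAAT. The window is rich in CG, with 37 CG dinucleotides against a median of 7 over all windows.

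Isl1 read 120, 107 and 90.8 on the CAG150 day 6 arrays, against 367, 352 and 335 on the HM1 day 6 arrays. At day 4 it read 82.8, 67.5 and 52.2 in CAG150 cells and 64.1, 69.1 and 71.3 in HM1 cells. HM1 at day 6 thus stood clear of every other group, CAG150 at day 6 came next without overlap, and the day 4 groups overlapped each other. At day 6 Isl1 was 3.03-fold lower in CAG150 (log2 difference -1.60 ± 0.13, adjusted p = 2.8e-06). At day 4 the difference was -0.03 ± 0.13 (95% interval -0.303 to 0.249, adjusted p = 0.92). Between the days Isl1 rose in both lines, 1.47-fold in CAG150 (0.56 ± 0.13, adjusted p = 0.0034) and 4.36-fold in HM1 (2.12 ± 0.13, adjusted p = 8.8e-08). With the mean of both Isl1 probe sets the rise in CAG150 was 0.37 (adjusted p = 0.016). The rises differed from each other by the interaction test (-1.57 ± 0.18, adjusted p = 0.00045), which takes the change in CAG150 minus the change in HM1. The dimmer probe set of Isl1 gave 45.3, 47.2 and 43.3 in CAG150 at day 6, against 110, 76.4 and 116 in HM1 at day 6. It was lower there too (-0.91 ± 0.16, adjusted p = 0.0045 over all probe sets), but its change with the day in CAG150 did not pass (0.18 ± 0.16, adjusted p = 0.53).

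Isl2, the close relative that acts with Isl1 in motor and sensory neurons, passed in no comparison. It read 27.1, 28.2 and 20.4 in CAG150 at day 6 and 24.9, 23.1 and 31.9 in HM1 at day 6, and 12.5 to 27.0 in CAG150 and 18.0 to 26.6 in HM1 at day 4. All 4 groups overlapped with the next in order. The difference between lines at day 6 was -0.05 ± 0.15 (95% interval -0.382 to 0.286, adjusted p = 0.86), and in the other 4 comparisons the adjusted p was between 0.34 and 0.97.

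Among the other motor neuron genes, only 2 had enough signal to be tested. Nkx6-1, a ventral progenitor factor upstream of motor neurons, averaged 20.3 ± 4.12 in CAG150 and 57.0 ± 6.22 in HM1 at day 6 (SD, n = 3 each). It was lower in CAG150 (-1.01 ± 0.18, adjusted p = 0.0018), against 0.06 ± 0.18 at day 4 (adjusted p = 0.87). Slc18a3, the vesicular acetylcholine transporter, did not pass at day 6 (-0.19, adjusted p = 0.42). The defining genes Mnx1, Olig2 and Chat stayed below the filter, with highest single-array values of 13.6, 17.4 and 13. Most motor neuron genes could thus not be compared between the groups.

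Isl1 also belongs to the heart field. The other 10 heart genes summed to 91.8 to 141 in CAG150 day 6 arrays and 457 to 475 in HM1 day 6 arrays. Of the 4 that could be tested, 2 were lower in CAG150 at day 6 and 0 higher, with a median difference of -0.88 against -0.00195 over all genes. These 2, Actc1 and Tbx20, made up most of the HM1 sum at day 6. Gata4 (18.8 ± 5.72 in CAG150 and 20.6 ± 6.03 in HM1, adjusted p = 0.88) did not pass there. Mef2c (16.9 ± 5.81 in CAG150 and 22.1 ± 6.96 in HM1, adjusted p = 0.40) did not pass either. Actc1, cardiac actin, was at 19.0 ± 14.8 in CAG150 and 268 ± 8.02 in HM1 (8.56-fold lower, adjusted p = 7.8e-07). It was lower in CAG150 at day 4 too, at 31.8 ± 8.82 in CAG150 and 142 ± 7.25 in HM1 (3.35-fold, adjusted p = 0.00015), when the heart sums were 124 to 133 in CAG150 and 217 to 265 in HM1 and the Isl1 difference did not pass. Tbx20, a T-box factor of the heart and of hindbrain motor neurons, was at 31.0 ± 12.4 in CAG150 and 120 ± 12.2 in HM1 (2.95-fold lower, adjusted p = 4.4e-05). The more defining Nkx2-5, Tnnt2, Myh6, Hand2 and Tbx1 reached at most 20.5, 10.8, 13.5, 8.11 and 7.06 on any array and were below the filter. The part of heart field cells in the Isl1 difference was not tested.

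Lhx3 and Lhx4 are paralogs that drive motor neuron and V2 interneuron fates. Lhx3 was dim everywhere. Its brighter probe set read 5.07 to 10.2 in CAG150 and 5.78 to 11.7 in HM1 at day 6, and 3.37 to 19.6 and 1.67 to 15 in CAG150 and HM1 at day 4, and both of its probe sets overlapped between all groups compared.

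Lhx4 had probe sets that disagreed. They were close in level, with mean intensities of 13.43 and 13.59 over all arrays, and the gene test used the one with the higher mean log2 value. It read 9.26, 17.0 and 7.16 in CAG150 at day 6, against 18.5, 26.6 and 17.6 in HM1 at day 6, with no overlap at day 6, and did not pass in any comparison (day 6 difference -0.45 ± 0.20, adjusted p = 0.13). The other read 13.7, 16.8 and 3.59 in CAG150 at day 6, against 35.7, 33.1 and 48.4 in HM1 at day 6. At day 4 this second probe set was near 0, at 1.45 to 4.4 in CAG150 and 1.21 to 1.51 in HM1. Only in HM1 at day 6 were all 3 arrays of it above 30. Tested among all probe sets, it was lower in CAG150 at day 6 (-1.03 ± 0.17, adjusted p = 0.0033) and rose with the day in HM1 (1.65 ± 0.17, adjusted p = 4.5e-05), while in CAG150 the day difference was 0.53 ± 0.17 (adjusted p = 0.051). Its interaction did not pass (-1.12 ± 0.24, adjusted p = 0.071).

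Few other V2 genes could be set beside Lhx3 and Lhx4. Of 3 tested, Foxn4, which starts the V2 programme, was higher in CAG150 at day 6 (46.6 ± 8.21 in CAG150 and 13.8 ± 9.37 in HM1, 1.12 ± 0.22, adjusted p = 0.0032). Gata2 and Tal1 did not pass there.

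Lhx2 and Lhx9 are paralogs of the dorsal dI1 interneurons, and Lhx2 is also needed for the eye field and the cerebral cortex. Lhx9 carried the largest rise of the family between the lines. Its RefSeq promoter window (GRCm38.p6, minus strand, chr1:138842395-138842694) is shown for that reason. It belongs to a start inside the annotated gene (chr1:138825186-138848839), with the letters CCAAT or their reverse complement in capitals.
Lhx9: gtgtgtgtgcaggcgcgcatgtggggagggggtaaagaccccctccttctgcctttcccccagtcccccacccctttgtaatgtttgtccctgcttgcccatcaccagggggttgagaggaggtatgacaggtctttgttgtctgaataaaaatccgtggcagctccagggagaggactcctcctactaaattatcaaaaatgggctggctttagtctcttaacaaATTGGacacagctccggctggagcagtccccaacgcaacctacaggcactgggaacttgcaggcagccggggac
It held CCAAT 1 time, none of the E-box letters CAGCTG or CATCTG, and 6 CG dinucleotides. Its GC content was 55.3%, where the median over all windows was 52.7%.

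Lhx9 read 104, 98.0 and 150 in CAG150 at day 6, against 18.5, 14.9 and 23.1 in HM1 at day 6. At day 4 it read 18.9, 19.2 and 20.7 in CAG150 and 11.1, 15.7 and 7.96 in HM1. The CAG150 day 6 arrays were the only ones above 25, and HM1 at day 6 overlapped with both day 4 groups. At day 6 Lhx9 was 3.79-fold higher in CAG150 (1.92 ± 0.15, adjusted p = 1.8e-06), or 2.57 and 1.12 on the log2 scale with pseudocounts of 1 and 64. At day 4 the groups did not overlap but the difference did not pass (0.38 ± 0.15, adjusted p = 0.10). Lhx9 rose 3.69-fold with the day in CAG150 (1.88 ± 0.15, adjusted p = 6.5e-07), against 0.34 ± 0.15 in HM1 (adjusted p = 0.085). The interaction passed (1.54 ± 0.21, adjusted p = 0.0013). With the mean of the 4 probe sets the rise in CAG150 was 1.2 and the interaction 1.00 (adjusted p = 0.0038), and with a pseudocount of 64 they were 1.10 and 0.97.

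Lhx9 has 4 probe sets, all higher in CAG150 at day 6 among all probe sets. The second brightest was close in size (1.92 ± 0.17), while the other pair gave 0.72 ± 0.18 and 0.75 ± 0.16. The third brightest differed little between the days, at 24.7, 23.0 and 25.4 in CAG150 at day 6, 10.4, 13.3 and 3.09 in HM1 at day 6, 19.0, 20.4 and 21.2 in CAG150 at day 4, and 13.6, 11 and 2.3 in HM1 at day 4. Its CAG150 arrays lay above its HM1 arrays at each day, and its days in CAG150 did not overlap, but the day difference there was 0.16 ± 0.18 (adjusted p = 0.65) and the line difference at day 4 was 0.57 ± 0.18 (adjusted p = 0.11). The rise with time in CAG150 thus passed for 3 of the 4 probe sets.

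**Figure D3:**
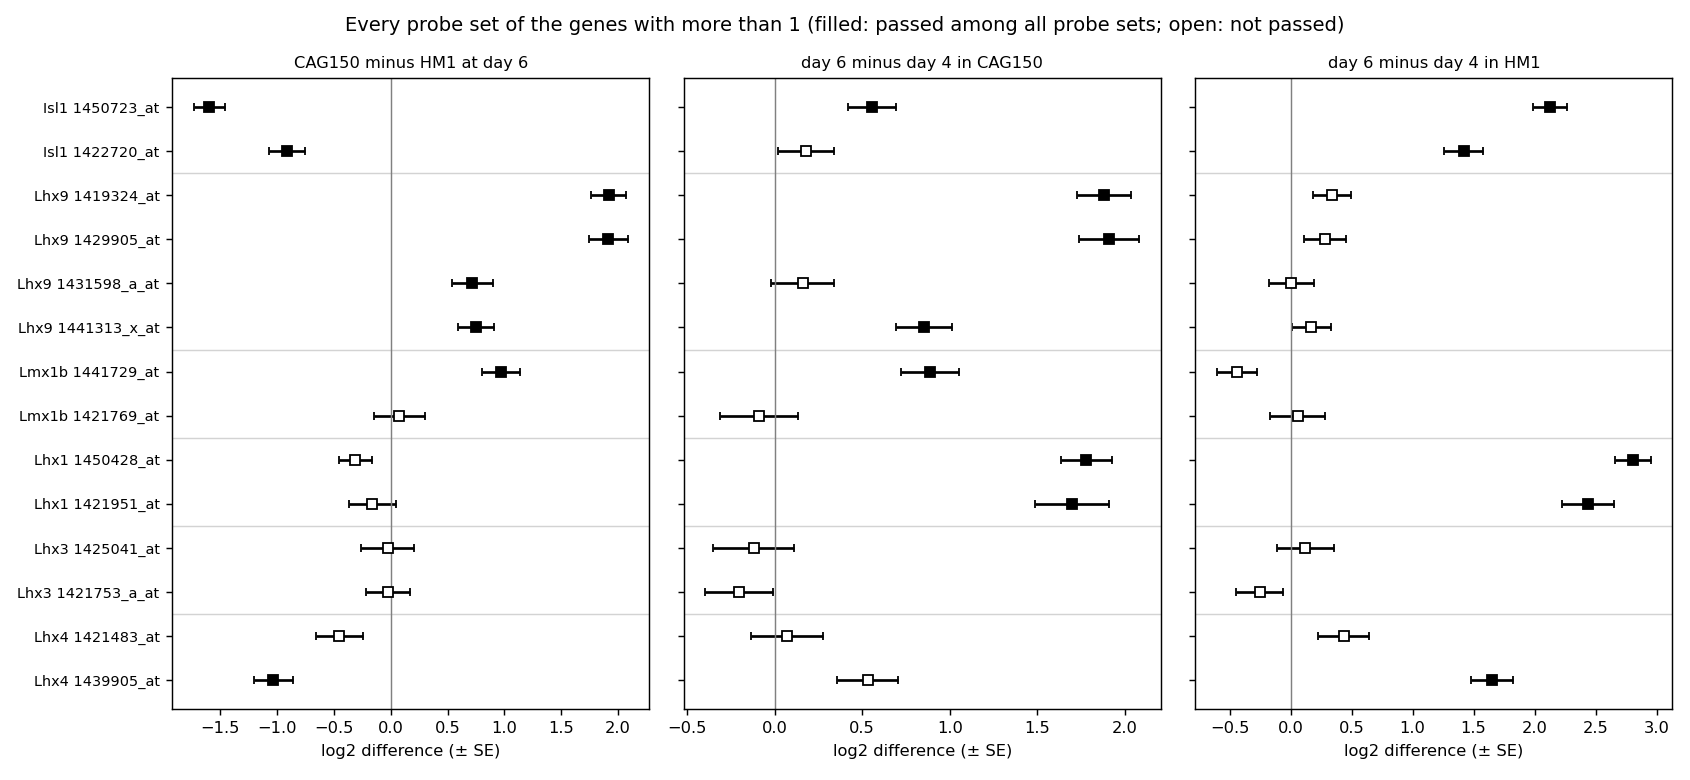
Log2 differences (squares) ± SE (bars) of every probe set of the 6 genes with more than 1, for the lines at day 6 and for the days in CAG150 and in HM1; filled squares passed when all 45037 probe sets were tested. The Lhx9 probe sets all lie right of 0 in the first panel (0.72 to 1.92), while the Lmx1b and Lhx4 probe sets differ from each other in size.

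Lhx2 changed in opposite directions in the lines. It read 182, 198 and 207 in CAG150 at day 6, against 76.2, 64.5 and 75.3 in HM1 at day 6, and 98.2, 94.9 and 75.5 in CAG150 at day 4, against 201, 243 and 196 in HM1 at day 4. The order was HM1 day 4, CAG150 day 6, CAG150 day 4 and HM1 day 6, with the upper pair overlapping each other and the lower pair overlapping each other. CAG150 was 2.40-fold higher at day 6 (1.27 ± 0.11, adjusted p = 6.5e-06) and 2.17-fold lower at day 4 (-1.12 ± 0.11, adjusted p = 2.5e-05). With the day Lhx2 rose 2.01-fold in CAG150 (adjusted p = 1.4e-05) and fell 2.60-fold in HM1 (adjusted p = 1.2e-06). Its interaction, 2.39 ± 0.16 (adjusted p = 6.5e-06), was the largest in size among the 8 genes.

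The genes that would place Lhx2 and Lhx9 in dI1 interneurons were mostly too dim. Atoh1, which starts the dI1 lineage, and Barhl1 and Barhl2 reached at most 16, 16.8 and 18.6 on any array. Of the 2 other genes tested, 0 passed limma's test between the lines at day 6, with 0 at an unadjusted p under 0.05 (median 0.04, against -0.00195 over all genes). Robo3, a guidance receptor of commissural axons, averaged 108 ± 7.07 in CAG150 and 84.7 ± 13.4 in HM1 at day 6 (0.31 ± 0.15, adjusted p = 0.16), and rose with the day in CAG150 (1.85, adjusted p = 8.8e-07) and in HM1 (2.28, adjusted p = 1.9e-07). Of the forebrain genes, Emx2, a cortical regulator, was higher in CAG150 at day 6 (64.9 ± 16.3 in CAG150 and 8.85 ± 4.60 in HM1, adjusted p = 0.00049), as was Reln, the secreted cue of Cajal-Retzius cells (173 ± 17.5 and 105 ± 11.1, adjusted p = 0.0019). They were 2 of 4 tested at day 6, with 0 lower and a median of 0.41. At day 4 Emx2 was higher in CAG150 too (0.84, adjusted p = 0.041), where Lhx2 was lower. With the day Emx2 did not pass in CAG150 (0.17, adjusted p = 0.61) and fell in HM1 (-0.69, adjusted p = 0.049). Rax, Emx1 and Tbr1 reached at most 15.4, 21.6 and 22.2.

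Lmx1b marks dI5 interneurons and is required in serotonergic and midbrain dopaminergic neurons. It read 69.6, 67.3 and 83.5 in CAG150 at day 6, against 20.6, 31.8 and 37.8 in HM1 at day 6, and 38.3, 36.4 and 23.6 in CAG150 at day 4, against 53.0, 45.7 and 39.1 in HM1 at day 4. CAG150 at day 6 stood above all other groups, and CAG150 at day 4 and HM1 at day 6 overlapped at the bottom. At day 6 it was 1.96-fold higher in CAG150 (0.97 ± 0.16, adjusted p = 0.00088), and at day 4 it had a difference of -0.35 ± 0.16 (adjusted p = 0.15). With the day it rose 1.85-fold in CAG150 (0.89 ± 0.16, adjusted p = 0.00058) and fell 1.36-fold in HM1 (-0.44 ± 0.16, adjusted p = 0.043, or 0.050 to 0.18 without any 1 of 6 arrays). The interaction was 1.32 ± 0.22 (adjusted p = 0.0058). A second probe set of Lmx1b stayed between 2.39 and 13.7 on all arrays and did not pass in any comparison, and with the mean of both probe sets the Lmx1b values were 0.52 at day 6 (adjusted p = 0.0044), 0.40 with the day in CAG150 (adjusted p = 0.011) and 0.59 for the interaction (adjusted p = 0.059). With a pseudocount of 64 they were 0.55, 0.51 and 0.73, and each passed.

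The sister gene Lmx1a, which is outside the set of 10, had a mean below the filter. It read 22.4, 38.9 and 28.2 in CAG150 at day 6 and between 0.837 and 5.80 on the 9 other arrays. Tested among all probe sets it was higher in CAG150 at day 6 (1.17 ± 0.15, adjusted p = 0.00054), and its interaction passed (1.21 ± 0.22, adjusted p = 0.026).

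Of the other genes listed with Isl1 and Lmx1b in dI3 and dI5 interneurons and sensory neurons, 4 of the 5 tested were higher in CAG150 at day 6 and 0 lower, with a median of 0.81 against -0.00195 over all genes. Pou4f1, a sensory and dorsal neuron factor, averaged 208 ± 29.7 in CAG150 and 64 ± 12.3 in HM1 (2.81-fold, adjusted p = 1.7e-05). Tlx3, which selects glutamatergic dorsal neurons and lies on chromosome 11, averaged 101 ± 17.0 in CAG150 and 39.9 ± 8.36 in HM1 (2.09-fold, adjusted p = 0.006). Prrxl1, a partner factor in the same neurons, was 1.75-fold higher (adjusted p = 0.0032). Isl1, on the same list, was lower. Of the serotonergic and dopaminergic genes, 0 of 4 tested passed limma's test between the lines at day 6, with 1 at an unadjusted p under 0.05 (median -0.06, against -0.00195 over all genes). That 1 was Th, the rate-limiting enzyme of dopamine synthesis, at 23.9 ± 5.48 in CAG150 and 11.9 ± 1.03 in HM1 (0.51 ± 0.18, adjusted p = 0.069). With the day 3 of the 4 rose in CAG150 (median 0.88, where 22.5% of all genes rose) and 1 in HM1 (median 0.29, where 20.4% rose), and Ddc, which makes both transmitters, rose in CAG150 (1.04, adjusted p = 2.8e-05) and in HM1 (0.70, adjusted p = 0.00085). The serotonergic genes Tph2 and Slc6a4 reached at most 6.85 and 14.7 on any array.

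Lhx1 and Lhx5 are paralogs that act together in inhibitory interneurons of the spinal cord and in Cajal-Retzius cells, and Lhx1 is also a factor of the gastrula organizer. The RefSeq promoter window of Lhx1 (GRCm38.p6, minus strand, chr11:84525485-84525784) is shown because Lhx1 had the largest rise with time in HM1, with CCAAT or its reverse complement in capitals.
Lhx1: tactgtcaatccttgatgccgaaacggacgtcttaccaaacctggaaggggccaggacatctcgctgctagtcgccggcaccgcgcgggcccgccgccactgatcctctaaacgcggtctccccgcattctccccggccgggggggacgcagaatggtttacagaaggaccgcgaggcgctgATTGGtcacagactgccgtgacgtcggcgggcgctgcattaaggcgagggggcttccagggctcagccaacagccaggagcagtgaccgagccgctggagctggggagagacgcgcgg
CCAAT was found 1 time, with 31 CG dinucleotides. The letters TATAAA, found in 13.6% of all windows, and TAATTA, a homeodomain core found in 5.3%, were in none of the 3 windows shown.

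Lhx1 read 138, 102 and 103 in CAG150 at day 6, against 151, 144 and 139 in HM1 at day 6, and 19.0, 18.9 and 27.6 in CAG150 at day 4, against 7.84, 3.27 and 10.5 in HM1 at day 4. The 4 groups did not overlap, and their order was HM1 day 6, CAG150 day 6, CAG150 day 4 and HM1 day 4. Lhx1 rose 3.44-fold with the day in CAG150 (1.78 ± 0.14, adjusted p = 6.8e-07) and 6.99-fold in HM1 (2.80 ± 0.14, adjusted p = 1.7e-08). The HM1 value was 4.27 and 1.55 with pseudocounts of 1 and 64, and the CAG150 value was 1.05 with 64. At day 4 Lhx1 was 1.64-fold higher in CAG150 (0.71 ± 0.14, adjusted p = 0.0043), or 1.57 and 0.27 on the log2 scale with pseudocounts of 1 and 64. At day 6 the difference of -0.31 ± 0.14 did not pass (adjusted p = 0.13). The interaction was -1.02 ± 0.20 (adjusted p = 0.013, and 0.052 when all probe sets were tested together), or -1.92 and -0.50 with pseudocounts of 1 and 64. The second Lhx1 probe set rose with the day in both lines too, by 1.70 ± 0.21 in CAG150 and 2.44 ± 0.21 in HM1, but its lines overlapped at each day.

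Lhx1 is the only one of the 10 on chromosome 11, whose 1007 tested genes had a median difference between CAG150 and HM1 of 0.23 at day 6 and 0.17 at day 4. The medians of the 17 autosomes other than 8 and 11 lay between -0.06 and -0.01 at day 6 and between -0.04 and 0.0028 at day 4. The part of this shift in the Lhx1 differences was not tested.

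Lhx5 read 35.6, 46.6 and 42.4 in CAG150 at day 6, against 73.0, 50 and 82.6 in HM1 at day 6, and 47.3, 36.5 and 44.8 in CAG150 at day 4, against 16.6, 23.0 and 25.5 in HM1 at day 4. The CAG150 groups overlapped each other and lay between HM1 at day 6 and HM1 at day 4. Lhx5 rose 2.22-fold with the day in HM1 (1.15 ± 0.15, adjusted p = 6.2e-05), against -0.03 ± 0.15 in CAG150 (95% interval -0.355 to 0.289, adjusted p = 0.88). CAG150 was 1.56-fold higher at day 4 (0.65 ± 0.15, adjusted p = 0.011) and 1.45-fold lower at day 6 (-0.54 ± 0.15, adjusted p = 0.021). The day 6 call was lost without either of CAG150 arrays 1 and 3 or HM1 arrays 1 and 3 (adjusted p = 0.052 to 0.087), and when all probe sets were tested together (adjusted p = 0.060). With a pseudocount of 64 the Lhx5 differences were 0.32 at day 4, -0.32 at day 6 and 0.62 with the day in HM1. The interaction passed (-1.18 ± 0.21, adjusted p = 0.0080), and was -0.64 with a pseudocount of 64 (adjusted p = 0.0045).

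Of the inhibitory interneuron genes listed with Lhx1 and Lhx5, 2 of the 4 others tested at day 6 were higher in CAG150 and 0 lower (median 0.41, against -0.00195 over all genes). Ptf1a, the progenitor factor of dorsal inhibitory neurons, averaged 87.6 ± 26.9 in CAG150 and 9.45 ± 2.00 in HM1 (4.00-fold, adjusted p = 3.1e-06), and Lbx1 was 1.66-fold higher (adjusted p = 0.0039). At day 4 Ptf1a averaged 1.11 in CAG150 and 7.39 in HM1. It thus cleared the filter through CAG150 at day 6 alone, which adds to this count. Slc32a1, the vesicular transporter of inhibitory neurons, averaged 20.5 ± 5.16 in CAG150 and 22.1 ± 2.56 in HM1 (adjusted p = 0.79). Gad1 and Gad2, the enzymes that make GABA, reached at most 19.0 and 18.3 on any array. In the gastrula organizer list, which shares Lhx1, the defining genes Gsc and Cer1 reached at most 11.5 and 14.6. Of its 4 other genes tested at day 6, Lefty1 (-0.97, adjusted p = 0.0027) and Foxa2 (-0.79, adjusted p = 0.0018) were lower in CAG150 and Eomes was higher (0.70, adjusted p = 0.013). The part of such cells in the Lhx1 values was not tested.

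Lhx8, a factor of basal forebrain cholinergic neurons, read 14.9, 21.9 and 11.6 in CAG150 at day 6, against 11.8, 11.6 and 6.72 in HM1 at day 6. At day 4 it read 6.66 to 15.6 in CAG150 and 0.503 to 9.51 in HM1. The groups compared overlapped, and its differences did not pass among all probe sets (day 6 difference 0.30 ± 0.19, adjusted p = 0.43). Nkx2-1, which acts upstream of it in the forebrain, reached at most 11.2 on any array. Lhx6, the close relative of Lhx8, averaged 18.6 ± 2.07 in CAG150 and 20.1 ± 6.75 in HM1 at day 6 (adjusted p = 0.84).

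Counted by comparison, at day 4 Lhx1 and Lhx5 were higher in CAG150 and Lhx2 was lower, 2 and 1 of the 8 tested, where 7.87% of all genes passed as higher and 7.92% as lower. With the day in CAG150, 5 of the 8 rose and 0 fell, against 22.5% and 21.9% of all genes. With the day in HM1, 3 rose (Lhx1, Lhx5 and Isl1) and 2 fell (Lhx2 and Lmx1b), against 20.4% and 18.5%. In the interaction, 3 were positive (Lhx2, Lhx9 and Lmx1b) and 3 negative (Lhx1, Lhx5 and Isl1), against 1.58% and 2.03%. These comparisons share arrays with each other. Lhx1 and Lhx9, which are in these counts, cleared the filter although at least 1 of their groups averaged below it. Lhx4, which did so too, passed in no comparison here.

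Ldb1, the adaptor through which these factors act, did not differ by more than its spread. It averaged 328 ± 38.9 in CAG150 and 354 ± 93.2 in HM1 at day 6 and 320 ± 35.9 and 342 ± 39.2 in CAG150 and HM1 at day 4, and did not pass between the lines (-0.08 ± 0.17 at day 6, adjusted p = 0.80). Ldb2 was dim, at 15.9 ± 3.02 in CAG150 and 8.75 ± 6.73 in HM1 at day 6 (adjusted p = 0.11). Of the 9 cofactor and LIM-only genes tested, 1 was higher and 1 lower in CAG150 at day 6 (median 0.07, against -0.00195 over all genes). At day 4, Lmo1 was higher and Lmo4, Ssbp3 and Rlim were lower (median 0.03, against 0.00509). Lmo4, a LIM-only protein that competes for Ldb1, averaged 201 ± 6.32 in CAG150 and 323 ± 3.84 in HM1 at day 6, and 171 ± 14.7 and 285 ± 17.0 in CAG150 and HM1 at day 4. The CAG150 level was lower on both days, by -0.64 ± 0.08 at day 6 (adjusted p = 0.00014) and -0.68 ± 0.08 at day 4 (adjusted p = 0.00012). Lmo2 averaged 113 ± 10.2 in CAG150 and 54.2 ± 6.32 in HM1 at day 6 (0.88 ± 0.16, adjusted p = 0.0018). With the day, 4 of the 9 rose in CAG150 and 0 fell (median 0.21, against 0.000268), and 3 rose and 1 fell in HM1 (median 0.17, against -0.00424). Lmo1 rose by 1.17 in CAG150 (adjusted p = 1.8e-06) and by 1.68 in HM1 (adjusted p = 9.9e-08). In the interaction 0 of the 9 passed limma's test, with 2 at an unadjusted p under 0.05, the smallest adjusted p being that of Ssbp3 (0.51, adjusted p = 0.054).

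The genes nearest in pattern were found as the 3 with the smallest root mean square distance over the 12 arrays, after each gene's log2 values were centred on its own mean. The arrays share their lines and days, so this describes the 4 groups more than the arrays. The nearest genes lie below the median distance by construction. That median was larger for members with a larger spread, so distances of different members are not on 1 scale. For Isl1 the nearest gene was Tbx20, at a distance of 0.122, where the median over all genes was 0.913, followed by Vnn1 (0.273) and Sox2ot (0.293). For Lhx9 they were Calb1, a calcium-binding protein (0.213), Prdm16 (0.239) and C130021I20Rik (0.241). Calb1 averaged 104 ± 22.0 in CAG150 and 20.7 ± 2.56 in HM1 at day 6. For Lhx2 they were Cbln1 (0.287), Fezf1, a forebrain regulator (0.352), and Zic5 (0.380), where the median over all genes was 0.662. For Lmx1b they were Tcerg1l (0.216), Id1 (0.228) and Zmat4 (0.245), for Lhx1 Ednrb (0.202), St18 (0.220) and Chrna5 (0.232), and for Lhx5 C1ql1 (0.170), Insc (0.188) and Ccnd2 (0.210). The medians over all genes were 0.923 for Lhx9, 0.482 for Lmx1b, 1.21 for Lhx1 and 0.494 for Lhx5. None of the nearest genes was one of the 10 LIM homeodomain genes.

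**Figure D4:**
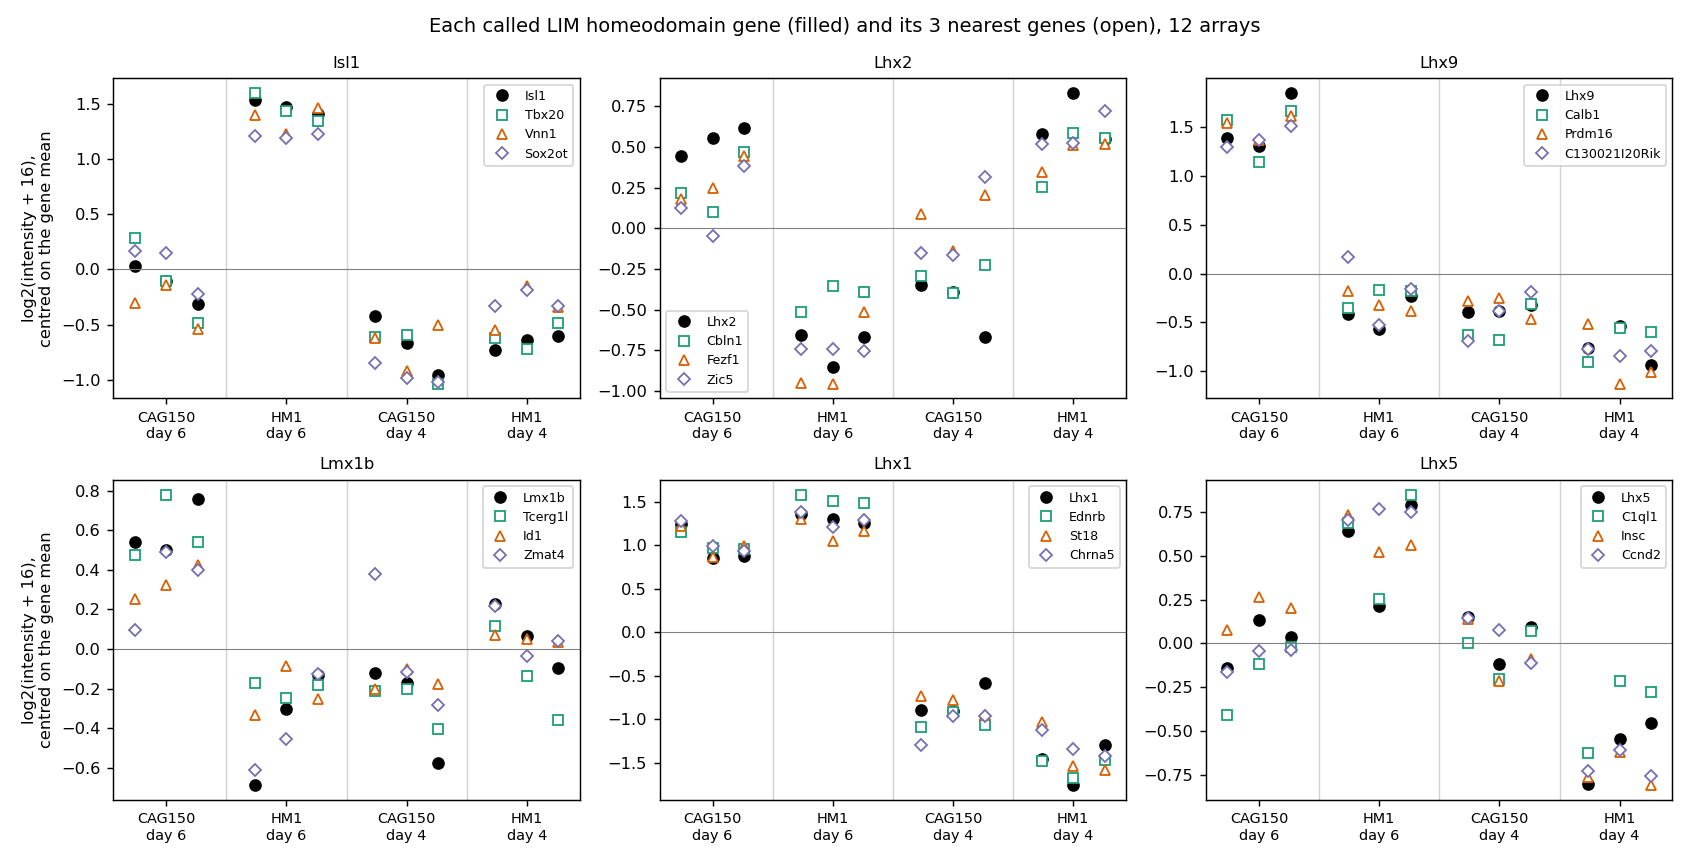
Log2(intensity + 16), centred on each gene's mean, on the 12 arrays in 4 groups for 6 LIM homeodomain genes (filled) and the 3 genes nearest to each (open). The Tbx20 points lie close to those of Isl1 in every group (distance 0.122), while those nearest to Lhx2 were at distances of 0.287 to 0.380.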

How the data were processed

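Gene expression was measured on 12 Affymetrix mouse arrays, 3 for each line and day, grouped by the sample titles. The deposited intensity values are linear and were scaled by the authors to a mean of 150 without the outer 2% of probe sets, as read from the values; software: not given in the sources used here. Of 45101 probe sets, 64 controls were left out, 34945 had 1 gene symbol in the platform annotation, 932 had several and 9160 none here. The 18 probe sets of the members were taken by symbol, and the Entrez identifiers matched a gene table of GRCm38.p6.

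Values were transformed as log2(intensity + 16). The brightest probe set stood for a gene, and a mean signal over the 40th percentile (4.80 on the log2 scale) was required. A model with 4 group means was fitted with limma 3.58.1 in R 4.3.3 (8 residual and 4.46 prior degrees of freedom), with Benjamini-Hochberg adjustment over 12280 genes in each of 5 comparisons. A second fit tested all 45037 probe sets that are not controls, without a filter. On simulated data with the real spread, 91 of 100 genes changed by 1 at day 6 were found and 89 of 100 at day 4. Of 100 genes changed by 0.5, 47 and 54 were found, and there were 8 and 11 false calls. Far fewer genes were changed there than passed in the data, so the share found may differ in the data.

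The text names all 10 members. It names for each member that passed its 3 nearest genes, and from each gene list up to 3 genes that passed with the largest difference, or the 1 with the smallest p, beside the genes Ldb1, Ldb2, Lmo4, Lhx6 and Lmx1a. Defining markers that stayed below the filter were named after their values were seen. So were Slc18a3, Gata2, Tal1, Slc32a1, Gata4, Mef2c, Trp73 and Six3, list members that did not pass between the lines at day 6. The same holds for Stmn2, Tubb3 and Rlim. The members and lists were chosen with earlier results of these data known. Replicate numbers of the titles were not used to pair the samples. Deviations from group means correlated between -0.133 and 0.122 over 18 same-numbered pairs. Such values cannot show whether samples of the same number shared a culture or batch. Alternatives were other normalizations, filters, pseudocounts, probe set summaries and variance models, a replicate block and leaving out each array.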

Additional observations from a re-analysis of the deposited data

Results flagged for a closer look

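The change with the day differed between the lines by limma's interaction test for 6 of the 8 genes tested, where 1.58% of all genes passed as positive and 2.03% as negative. As the change in CAG150 minus that in HM1 on the log2 scale, it was 2.39 for Lhx2, 1.54 for Lhx9 and 1.32 for Lmx1b, and it was -1.02 for Lhx1, -1.18 for Lhx5 and -1.57 for Isl1. For Lhx2 the lines moved in opposite directions, for Lmx1b the fall in HM1 was near the threshold, and for Isl1 and Lhx1 both lines rose. The Lhx1 call was lost when all probe sets were tested together (adjusted p = 0.052) and the Lmx1b call with the mean of its probe sets (adjusted p = 0.059). Among all probe sets, the Lhx9 interaction passed for its brighter pair (1.54 and 1.63, adjusted p = 0.0068 and 0.0087). It did not pass for the dimmer pair (0.15 and 0.68, adjusted p = 0.91 and 0.28). The dimmer probe set of Lhx1 (-0.74, adjusted p = 0.42) and that of Lmx1b (-0.15, adjusted p = 0.93) did not pass. That of Isl1 did (-1.24, adjusted p = 0.028). Groups of 3 arrays are too small for a test of single outlying arrays.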

How the results depend on the processing

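With the filter at the 60th percentile, 3 of the 10 genes were left to test (Lhx1, Lhx2 and Isl1), and the counts called were 2 against 5 for the lines at day 6, 3 against 5 for the days in CAG150, 3 against 5 for the days in HM1 and 3 against 6 for the interaction; fewer genes tested is the cause by construction. Under the other settings, which were quantile normalization, median centring, no filter, pseudocounts of 1 and 64, averaged probe sets per gene, a variance trend, the arrays of 2 groups, all probe sets singly and, added after the data were seen, no chromosomes 8, 11 and Y, the counts of members stayed within 1.5 times, and no called difference changed sign. Leaving out each array gave counts of 4 to 5 for the lines at day 6, 3 to 4 at day 4, 5 for the days in CAG150, 4 to 6 in HM1 and 6 for the interaction. With the replicate block the counts were 6 at day 6 and 3 at day 4, 5 in each line with the day and 6 in the interaction; Lhx4 then passed at day 6 (adjusted p = 0.018) and with the day in HM1 (adjusted p = 0.012), and Lmx1b no longer with the day in HM1 (adjusted p = 0.068). The fall of Lmx1b in HM1 was lost under 12 settings, with adjusted p up to 0.20. Lhx9 at day 4 passed without CAG150 day 6 array 3 (adjusted p = 0.049), and with the day in HM1 without that array (0.039), without HM1 day 4 array 2 (0.046) and with a pseudocount of 1 (0.045). Lhx4 passed with the day in HM1 without HM1 day 4 array 2 (0.67, adjusted p = 0.013). Over all genes, the interaction gave 443 calls, against 295 with no filter, 270 without CAG150 day 6 array 3 and 295 without CAG150 day 4 array 2, and up to 362 without 1 other array. Intensities near the filter, as for Lhx3, Lhx4 and Lhx8, limit what could be seen.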

Other observations

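Other genes of the lists showed day and line patterns of their own. Gbx1, a homeobox gene of the dorsal spinal cord, averaged 79.5 ± 9.93 in CAG150 and 137 ± 5.30 in HM1 at day 6 (-0.69, adjusted p = 0.0033), and rose by 1.54 in CAG150 and by 2.59 in HM1 with the day. Gbx2, a hindbrain regulator, averaged 162 ± 18.4 in CAG150 and 126 ± 12.8 in HM1 at day 6, and 225 ± 4.67 in CAG150 and 425 ± 35.8 in HM1 at day 4. It was higher in CAG150 at day 6 (0.33, adjusted p = 0.037) and lower at day 4 (-0.86, adjusted p = 1e-04). En1, a midbrain and V1 interneuron factor, averaged 11.2 ± 6.19 in CAG150 and 9.25 ± 1.90 in HM1 at day 6, and 244 ± 36.8 in CAG150 and 101 ± 13.9 in HM1 at day 4, so it fell by 3.27 in CAG150 and by 2.21 in HM1. P-values and changes are limma's, over 12280 genes.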
